A study of Mus musculus with 12 samples.

Results

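The genes described here are 10 that mark the hormone-secreting (enteroendocrine) cells of the gut: Tac1, Chga, Chgb, Gcg, Pyy, Tph1, Insl5, Neurod1, Sst and Cck. They were taken by symbol from the 46517 genes of the count tables, and all 10 were found. Of these, 8 passed the filter on low counts and were among the 12522 genes tested, while Sst and Cck did not pass it. Tac1 was chosen by its measured counts, for a higher level under dextran sulfate sodium (DSS) in wild-type (WT) mice. Its values in every comparison that uses WT samples are therefore given as a description with no test, and its only test is the effect of DSS in knockout mice. The other 9 genes were picked as markers of the same cell class.

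RNA was measured in colonic epithelial cells of C57BL/6 mice aged 7 to 9 weeks. There were 4 groups of 3 samples: WT without treatment, WT after 48 h of DSS, Nfkb2-/- without treatment and Nfkb2-/- after 48 h of DSS (KO from here on). DSS is a sulfated polysaccharide that injures the colonic epithelium. Nfkb2 encodes p100, the precursor of the NF-kB subunit p52. The cells were detached from the colon with EDTA, and the labels put epithelial cells (EpCAM+, CD45.2-) at about 90% of them. The labels call the 3 samples of a group biological replicates and do not say whether a sample is 1 mouse or a pool, nor whether the WT mice were littermates of the KO mice.

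Enteroendocrine cells are scattered singly among absorptive and goblet cells. They store peptide hormones and amines in dense-core granules and release them towards nerves and blood when nutrients, microbial products or irritants reach the lumen. In the colon the main types are enterochromaffin cells, which make serotonin and in part the tachykinin substance P, L cells, which make GLP-1, peptide YY and insulin-like peptide 5, and D cells, which make somatostatin. Their granules are built with granins, acidic proteins that aggregate with the cargo, and their differentiation runs through transcription factors such as NeuroD1.

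Several of these genes are known as targets of cyclic AMP signalling through a response element whose half-site reads TGACG. RefSeq start sites on GRCm38.p6 were available for all 10 genes, each with a window of 300 bases (250 before and 50 after the start). Read on both strands, TGACG stood in at least 1 window of 6 of the 10 genes (Tac1, Chga, Chgb, Tph1, Sst and Cck) against 23.0% of the 27025 genes with windows (20.8% of all 32851 windows). The full palindrome TGACGTCA, which contains the half-site on both strands, stood in Chgb and Sst, against 2.03% of all genes (1.79% of all windows). The pieces below are shown because Tac1, with the highest DSS value of the set, and the granins, with values near or below 0, share these letters. Distances are from the RefSeq start, which can differ from the start of the GENCODE gene span given further below. The Tac1 piece at 43 bases and those of Chgb and Sst lie inside these spans. Each is 30 bases on the gene's own strand, 5′ to 3′, and capitals mark the half-site or its reverse complement CGTCA.
Tac1 (chr6:7554852-7554881, + strand, 197 bases before the start): tccctaaaattgCGTCAtttcgaacacaat
Tac1 (chr6:7555006-7555035, + strand, 43 bases before the start): gctctacaggctCGTCAcgcctgagataaa
Chga (chr12:102554885-102554914, + strand, 44 bases before the start): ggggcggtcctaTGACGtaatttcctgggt
Chgb (chr2:132781558-132781587, + strand, 72 bases before the start): ggggctgctccgTGACGtcagggctgagcg
Tph1 (chr7:46672556-46672585, - strand, 36 bases before the start): aaaatgtgcgtgTGACGctgcgtgtgctag
Sst (chr16:23890875-23890904, - strand, 48 bases before the start): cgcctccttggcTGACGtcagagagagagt
Cck (chr9:121495724-121495753, - strand, 47 bases before the start): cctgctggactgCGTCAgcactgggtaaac

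A kB-like pattern, GGG and CC with NNNNN between them, on either strand, stood in the windows of Chga, Chgb, Pyy, Neurod1, Sst and Cck, against 53.5% of all genes (50.8% of all windows). The windows of Tac1 did not hold these letters, which says nothing about sites elsewhere. The E-box CANNTG, the pattern bound by NeuroD1 and related factors, stood in windows of all 10 genes, against 75.0% of all genes (72.3% of all windows). These matches are descriptions of sequence, and the motifs were chosen after the expression values had been seen.

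The libraries held 5595909 to 8117740 counts each, and a floor of 3 counts corresponded to 0.36 to 0.53 CPM (counts relative to library size, in the usual unit and scaled by TMM factors). The counts of Nfkb2 itself, 211 to 346 with WT and 87 to 143 with KO (n = 6 each), did not overlap. The library numbers in the labels put all WT libraries before all KO libraries, so the effect of genotype and that of library order cannot be told apart. The summed level of 6 general epithelial genes was 19934 to 28769 CPM over the 12 samples. Ins1, Ins2, Cpa1, Amy2a5 and Pnlip of a list of 8 pancreatic genes were at 0 in all 12 samples, and Cela1 made up nearly all of the summed 169 to 315 CPM of that list.

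The enteroendocrine label rested on Chga, Chgb and Gcg, while the other hormones had few counts. Chga, Chgb and Gcg had 112 or more counts in each library, whereas Fev, Insm1, Nkx2-2 and Scg5, further markers of the class, had mean levels under 1 CPM in every group. Of 10 such markers outside the set, 5 could be tested.

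Ordered by level per kb of exon, which allows different genes to be compared, Gcg, Chgb, Chga and Pyy led in untreated WT with means of 22.1, 18.6, 8.63 and 4.28 CPM per kb. The samples of Gcg and Chgb overlapped, those of Chgb and Chga did not, and neither did those of Chga and Pyy. Insl5 (1.75), Tac1 (1.30), Tph1 (0.99), Sst (0.73) and Neurod1 (0.43 CPM per kb) followed, each overlapping its neighbour, and Cck was at 0. The same 4 genes led in untreated KO and in DSS-treated KO. In DSS-treated WT, Tac1 was first with 25.6 ± 1.14 CPM per kb (SD, n = 3), and its lowest sample (24.3) was above all samples of Gcg, which had a mean of 17.1 CPM per kb. In DSS-treated KO, Tac1 was the fifth, with 3.77 CPM per kb, apart from Pyy above it (8.0) and from Insl5 below it (1.98).

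**Figure D1:**
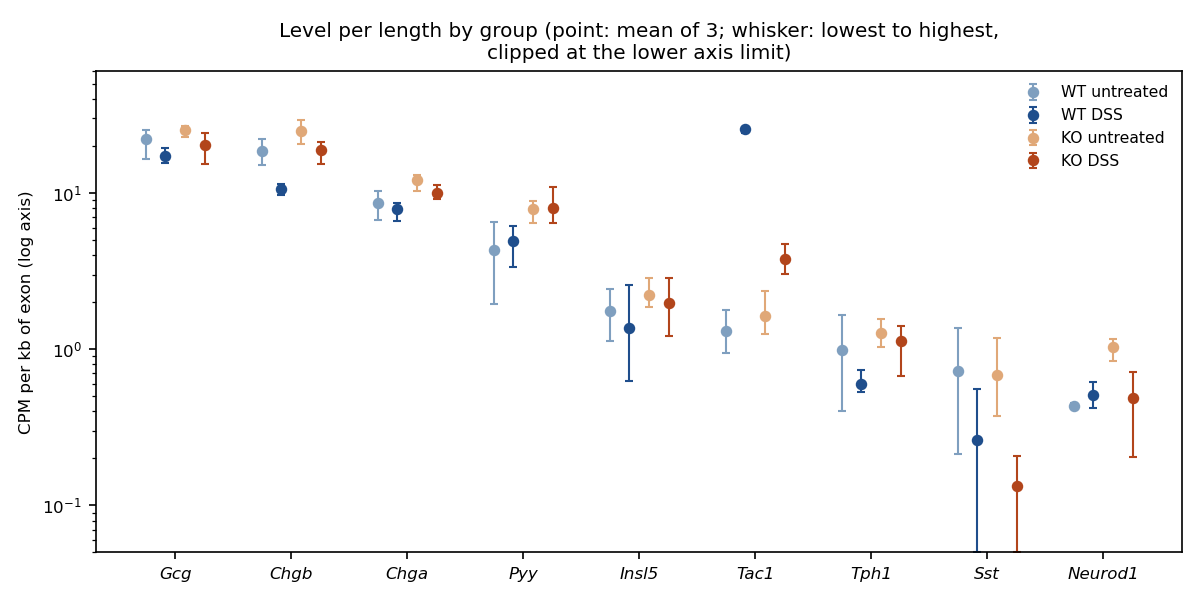
Level of 9 of the 10 genes in CPM per kb of exon on a log axis, with the mean of 3 samples as a point and the lowest to highest sample as a whisker, for each group (Cck, at or near 0, is left out). Tac1 has a mean of 1.30 CPM per kb in untreated WT and 25.6 in DSS-treated WT, while the other genes keep a similar order in all 4 groups.

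Tac1 (ENSMUSG00000061762.11, chromosome 6 from 7554879 to 7565834 on the + strand, GRCm38) encodes the precursor of substance P and neurokinin A, which enterochromaffin cells and enteric neurons both make. In untreated WT its samples had 3.21, 6.07 and 4.02 CPM (22, 37 and 26 counts). Under DSS the WT samples had 88.5, 89.7 and 82.5 CPM (583, 673 and 506 counts). All 3 WT DSS samples lay far above every other library and within a narrow band. In untreated KO the samples had 4.44, 4.27 and 7.96 CPM (33, 35 and 67 counts), and in DSS-treated KO they had 10.3, 12.2 and 16.1 CPM (58, 82 and 116 counts). The KO DSS samples were above all untreated samples of either genotype, and the highest of them was far below the lowest WT DSS sample.

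As a description, the log2 fold change of Tac1 under DSS in WT was 4.30 (SE 0.29), a 19.7-fold higher level, and ranked 25 of the 12522 genes from the highest. In KO, which the stated ground for choosing the gene does not name, Tac1 rose 2.30-fold under DSS (log2 fold change 1.20, SE 0.28, edgeR quasi-likelihood adjusted p = 0.0235). The gene was still chosen with earlier results of these data known, and this fit takes its spread from all 12 samples, WT included. Of all genes tested, 3.92% passed in that comparison, 1.88% higher and 2.04% lower under DSS. An exact two-sided permutation test of the same 3 against 3 samples gave p = 0.1, the smallest that design allows. The call did not hold without untreated KO sample 1 or 2 or without KO DSS sample 2 or 3, where the log2 fold change was 1.07, 1.04, 1.24 and 1.00 with edgeR adjusted p of 0.105, 0.114, 0.0683 and 0.108. It also did not hold in a fit of the 2 KO groups alone (log2 fold change 1.21, adjusted p = 0.0816).

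Between genotypes, the log2 difference of Tac1 (KO minus WT) was 0.34 (SE 0.30) without treatment, where the groups overlapped, and -2.75 (SE 0.26) under DSS, a 6.74-fold lower mean in KO. The DSS change in KO minus that in WT was -3.09 (SE 0.39). All of these contrasts use the WT samples by which Tac1 was chosen and carry no test. Measured against Chga, Tac1 stood at 0.20 ± 0.11 of its CPM in untreated WT (SD, n = 3), 4.04 ± 0.42 in DSS-treated WT, 0.17 ± 0.05 in untreated KO and 0.46 ± 0.06 in DSS-treated KO. Against Tph1, the serotonin-making enzyme of enterochromaffin cells, the ratio was 0.56 to 1.62 in untreated WT and 19.4 to 26.9 in DSS-treated WT. In KO it was 0.44 to 1.24 without treatment and 1.18 to 3.87 under DSS, and the 2 KO groups overlapped on this measure. In each same-numbered pair of KO samples the DSS sample had the higher ratio, with 0.61 and 1.18, 0.44 and 1.52, and 1.24 and 3.87.

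Because Tac1 is also a neuronal gene, 13 enteric neuron markers were read beside it. Elavl3, Prph, Stmn2 and Vip were at 0 in all 12 samples, and none of the 13 passed the filter on low counts. The summed level of the list was 1.70 to 5.74 CPM in untreated WT, 1.96 to 2.28 CPM in DSS-treated WT, 1.66 to 2.15 CPM in untreated KO and 1.19 to 3.18 CPM in DSS-treated KO, so the groups overlapped. Of 6 enteric glia markers, Sox10 and Cdh19 were at 0 in all samples, and without Erbb3, which epithelium also expresses, the list summed to 0 to 1.93 CPM. Erbb3 itself, at a mean of 204 to 301 CPM in the 4 groups, rose under DSS in KO (log2 fold change 0.55, SE 0.13, adjusted p = 0.0311), a call lost without any 1 of the 3 untreated KO samples or without KO DSS sample 1 or 2 (0.40 to 0.57, adjusted p 0.0866 to 0.144). In bulk samples such as these, more cells of a type and more RNA per cell cannot be told apart, for Tac1 or for any gene below.

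Leukocyte and positional markers moved with the groups. The 12 leukocyte markers summed to 1234 to 1731 CPM in untreated WT, 1919 to 2419 CPM in DSS-treated WT, 2266 to 2366 CPM in untreated KO and 2057 to 2259 CPM in DSS-treated KO, nearly all of it Cd74, which epithelium can also express. Without Cd74 the sums were 15.3 to 22.0, 43.2 to 45.6, 44.8 to 61.8 and 74.7 to 113 CPM in the same order of groups. Of 9 leukocyte markers tested, 4 rose and 0 fell under DSS in WT, where 2.80% of all genes rose, and 1 rose in KO, where 1.88% of all genes did. KO was higher for 4 of the 9 without treatment and for 2 under DSS, against 1.72% and 1.77% of all genes. The 6 posterior Hox genes, which mark distal position along the colon, summed to 259 to 281 CPM in untreated WT, 411 to 431 CPM in DSS-treated WT, 392 to 439 CPM in untreated KO and 379 to 445 CPM in DSS-treated KO. The part of these shifts in the results on the 10 genes was not tested.

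**Figure D2:**
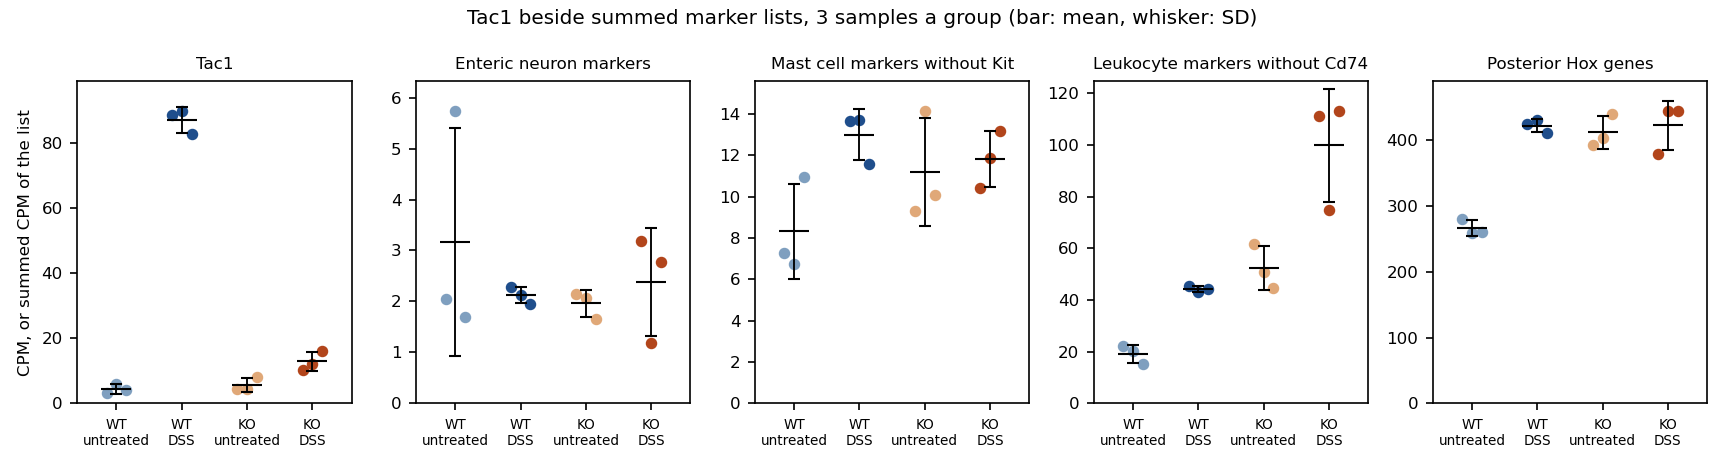
Tac1 in CPM (left) and the summed CPM of 4 marker lists in each of the 12 samples, with the mean and SD of each group. Tac1 is at 82.5 to 89.7 CPM in DSS-treated WT only, the neuron list stays between 1.19 and 5.74 CPM in all groups, and the leukocyte list without Cd74 is highest in DSS-treated KO.

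Chromogranin A (Chga, ENSMUSG00000021194.5, chromosome 12 from 102554969 to 102565028, + strand), the general marker of the class, had 28.1, 18.5 and 24.7 CPM in untreated WT and 23.1, 23.9 and 18.3 CPM in DSS-treated WT. In KO it had 28.5, 35.8 and 35.1 CPM without treatment and 25.3, 26.1 and 31.0 CPM under DSS. Within each genotype the untreated and DSS samples overlapped. The DSS sample was the lower in all 3 same-numbered KO pairs, while the WT pairs went both ways. All KO samples were above all WT samples of the same treatment. The log2 fold change under DSS was -0.13 (SE 0.20, adjusted p = 0.827) in WT and -0.27 (SE 0.19, adjusted p = 0.573) in KO. The KO minus WT difference was 0.48 (SE 0.20, adjusted p = 0.241) without treatment and 0.34 (SE 0.20, adjusted p = 0.483) under DSS, and neither passed. The DSS changes of Chga differed by -0.14 (SE 0.28, adjusted p = 0.943). The overlap of groups is a loose measure: KO samples were all above WT samples for 9.81% of all genes tested without treatment and for 11.7% under DSS.

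Chromogranin B (Chgb, ENSMUSG00000027350.8, chromosome 2 from 132781278 to 132795079, + strand), the second granin, fell under DSS in WT. Its samples had 60.6, 50.4 and 41.6 CPM without treatment and 31.1, 29.2 and 26.7 CPM under DSS. These did not overlap, as for 9.96% of all genes tested in that direction. The mean was 1.75-fold lower (log2 fold change -0.81, SE 0.19, edgeR adjusted p = 0.0165). In KO the samples had 68.8, 79.7 and 56.0 CPM without treatment and 58.3, 42.0 and 54.2 CPM under DSS, which overlapped, with the DSS sample lower in all 3 same-numbered pairs. The log2 fold change of -0.40 (SE 0.18, adjusted p = 0.289) did not pass. The difference between the 2 DSS changes was 0.40 (SE 0.26) and did not pass either (adjusted p = 0.673), so Chgb was not shown to respond differently in the genotypes. Under DSS all 3 KO samples were above all WT samples, with a 1.77-fold higher mean in KO (log2 difference 0.83, SE 0.19, adjusted p = 0.0267). Without treatment the difference was 0.42 (SE 0.18, adjusted p = 0.274).

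Both calls of Chgb were lost in some fits that left out 1 sample, although the direction stayed the same. Over these fits the log2 value was -0.94 to -0.67 for DSS in WT and 0.73 to 0.94 between genotypes under DSS. The fall in WT did not pass without untreated WT sample 1 (log2 fold change -0.67, adjusted p = 0.0716), WT DSS sample 2 (-0.81, 0.0606) or WT DSS sample 3 (-0.75, 0.0797). The higher level in DSS-treated KO did not pass without any 1 of the 3 WT DSS samples or without KO DSS sample 1 or 3, where the log2 difference was 0.88, 0.83, 0.77, 0.73 and 0.79 with adjusted p of 0.0842, 0.0948, 0.120, 0.104 and 0.0957. The ratio of Chgb to Chga in CPM was 2.18 ± 0.52 in untreated WT, 1.35 ± 0.12 in DSS-treated WT, 2.08 ± 0.43 in untreated KO and 1.89 ± 0.37 in DSS-treated KO (SD, n = 3).

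**Figure D3:**
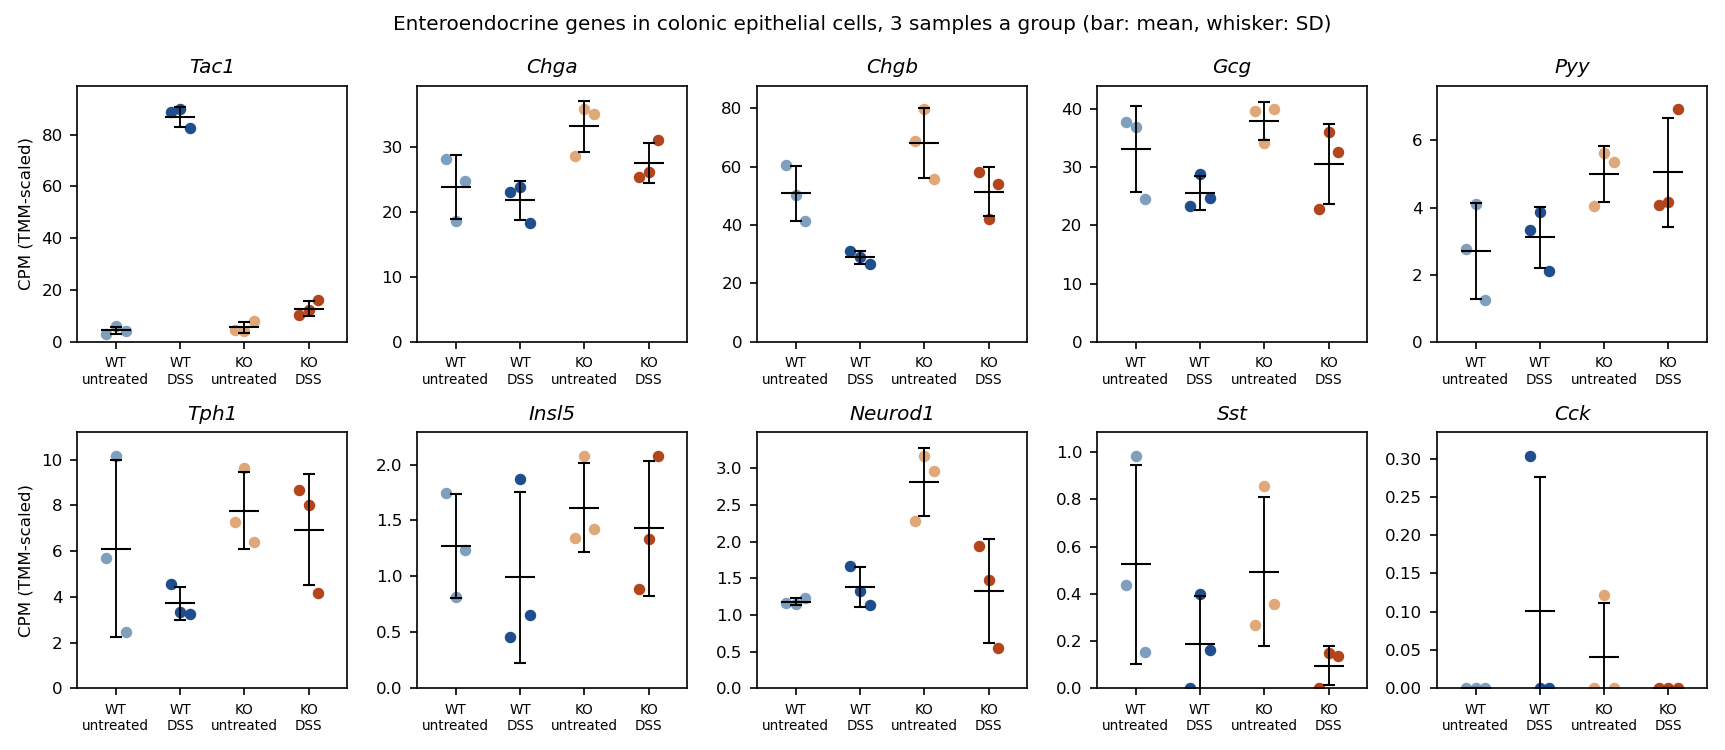
CPM of the 10 genes in each sample, 1 panel a gene with its own axis starting at 0, with 3 points a group, the mean as a bar and the SD as a whisker. Tac1 stands apart in DSS-treated WT, Chgb is at 26.7 to 31.1 CPM there against 41.6 to 60.6 CPM in untreated WT, and Sst and Cck are at or near the floor of 0.36 to 0.53 CPM.

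The L-cell hormones did not pass the test in any comparison. Glucagon (Gcg, ENSMUSG00000000394.14, chromosome 2 from 62474530 to 62483650, - strand), the precursor of GLP-1 and GLP-2 in the gut, had 37.7, 36.9 and 24.6 CPM in untreated WT and 23.2, 28.8 and 24.6 CPM in DSS-treated WT. In KO it had 39.6, 34.2 and 39.9 CPM without treatment and 22.8, 36.0 and 32.6 CPM under DSS, and the groups overlapped in each of the 4 comparisons. The log2 fold change under DSS was -0.37 (SE 0.21) in WT and -0.31 (SE 0.21) in KO, with a difference between these of 0.06 (SE 0.29, adjusted p = 0.984). Between genotypes the log2 difference of Gcg was 0.20 (SE 0.21, adjusted p = 0.748) without treatment and 0.26 (SE 0.21, adjusted p = 0.654) under DSS.

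Peptide YY (Pyy, chromosome 11 from 102106676 to 102107832, - strand), which slows gut transit, had 2.77, 4.10 and 1.24 CPM in untreated WT and 3.34, 3.87 and 2.12 CPM in DSS-treated WT. Its KO samples had 4.04, 5.61 and 5.35 CPM without treatment and 4.07, 4.15 and 6.93 CPM under DSS. The KO samples under DSS were all above the WT ones, but the log2 difference of 0.69 (SE 0.45, adjusted p = 0.543) did not pass, and nor did the 0.89 (SE 0.45, adjusted p = 0.383) without treatment. The log2 fold change of Pyy under DSS was 0.21 (SE 0.47) in WT and 0.02 (SE 0.44) in KO, with a difference between these of -0.19 (SE 0.64, adjusted p = 0.973). Insulin-like peptide 5 (Insl5, chromosome 4 from 103017872 to 103026842, - strand), a hormone of distal colonic L cells, had only 3 to 17 counts a library (0.46 to 2.08 CPM). Under DSS the log2 fold change of Insl5 was -0.33 (WT) and -0.16 (KO), and KO minus WT was 0.34 without treatment and 0.51 under DSS (adjusted p 0.800 to 0.940). The DSS changes of Insl5 differed by 0.17 (SE 0.92, adjusted p = 0.984). Its SE of 0.63 to 0.67 on the log2 scale in the comparisons of 2 groups sets the precision at this depth.

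Tph1 (chromosome 7 from 46644641 to 46672537, - strand), which catalyses the first and rate-limiting step of serotonin synthesis in enterochromaffin cells, had 5.68, 10.2 and 2.47 CPM in untreated WT and 4.56, 3.33 and 3.26 CPM in DSS-treated WT. In KO it had 7.27, 9.64 and 6.42 CPM without treatment and 8.66, 8.01 and 4.16 CPM under DSS, so the groups overlapped in each comparison. Its log2 fold change under DSS was -0.71 (SE 0.46, adjusted p = 0.490) in WT and -0.17 (SE 0.44, adjusted p = 0.908) in KO, with a difference between these of 0.54 (SE 0.63, adjusted p = 0.882). Between genotypes the log2 difference of Tph1 was 0.35 (SE 0.44, adjusted p = 0.802) without treatment and 0.89 (SE 0.46, adjusted p = 0.405) under DSS. Mast cells also express Tph1, and without Kit, which epithelium also expresses, the mast cell list summed to 6.73 to 10.97 CPM in untreated WT, 11.6 to 13.7 CPM in DSS-treated WT, 9.29 to 14.2 CPM in untreated KO and 10.4 to 13.2 CPM in DSS-treated KO. With Kit, the 11 mast cell markers summed to 39.0 to 71.4 CPM over the 12 samples. Tpsab1 was at 0 in all samples, and 0 of the 5 mast cell markers tested passed in any of the 5 edgeR contrasts (1 had an unadjusted p under 0.05 in each of 4 of them). The part of mast cells in the Tph1 values was not tested.

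NeuroD1 (Neurod1, chromosome 2 from 79452521 to 79456751, - strand), the transcription factor of enteroendocrine differentiation, had 1.17, 1.15 and 1.24 CPM in untreated WT and 1.67, 1.33 and 1.14 CPM in DSS-treated WT. In untreated KO it had 2.29, 3.17 and 2.97 CPM (17, 26 and 25 counts), above every other sample. In DSS-treated KO it had 1.94, 1.48 and 0.55 CPM, and 12.3% of all genes tested likewise had every DSS sample of KO below the untreated ones. The log2 difference between untreated genotypes was 1.24 (SE 0.54, adjusted p = 0.289) and that of DSS in KO was -1.09 (SE 0.54, adjusted p = 0.353), and neither passed. The DSS change in WT was 0.22 (SE 0.57, adjusted p = 0.912), KO minus WT under DSS was -0.08 (SE 0.56, adjusted p = 0.974), and the DSS changes differed by -1.31 (SE 0.78, adjusted p = 0.628). The value is uncertain in addition because Neurod1 shares 201 exonic bases with Cerkl on the same strand. It also shares 154 with Gm26755 on the opposite strand, and the library kit does not keep the strand.

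Somatostatin (Sst, chromosome 16 from 23889573 to 23890958, - strand), the inhibitory hormone of D cells, had 0 to 7 counts a library, with 3, 6 and 1 in untreated WT, 0, 3 and 1 in DSS-treated WT, 2, 7 and 3 in untreated KO and 0, 1 and 1 in DSS-treated KO. The KO samples did not overlap and were lower under DSS, at counts too low for the filter and so without a test. Of all genes tested, 12.3% likewise had every DSS sample of KO below the untreated ones. Cholecystokinin (Cck, chromosome 9 from 121489824 to 121495694, - strand), a hormone mainly of the upper small intestine, had 2 counts in WT DSS sample 1, 1 count in untreated KO sample 2 and 0 in the other 10 libraries. No comparison of Cck was possible at these counts.

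Counted over the 7 tested genes other than Tac1, 1 fell and 0 rose under DSS in WT, where 3.50% of all genes tested fell and 2.80% rose (6.30% in all). Their median log2 fold change was -0.33, against 0.01 over all genes. In KO none of the 7 passed under DSS by edgeR (1 at an unadjusted p under 0.05), with a median of -0.27 against 0.02 over all genes. Without treatment the log2 difference between genotypes was above 0 for all 7 genes, against 49.8% of all genes tested. The median of the 7 was 0.42 against 0.00 over all genes, but edgeR called none of them (3 at an unadjusted p under 0.05). Of all genes, 3.48% passed there, 1.72% higher and 1.76% lower in KO. Under DSS 1 of 7 was higher in KO, where 3.11% of all genes passed (1.77% higher and 1.34% lower). The median of the 7 was 0.51 against 0.00 over all genes, and 6 of 7 values were above 0, against 50.4% of all genes. The difference between the DSS changes passed for none of the 7 (0 at an unadjusted p under 0.05) and for 1.70% of all genes. DESeq2 called the same number of these genes as edgeR in each of the 5 contrasts. The 4 comparisons share samples in pairs, so a value that is high in 1 group enters 2 of them.

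The summed level of the 9 genes other than Tac1 was 119.5 ± 20.8 CPM in untreated WT, 85.8 ± 8.04 CPM in DSS-treated WT, 156.9 ± 12.5 CPM in untreated KO and 124.3 ± 6.53 CPM in DSS-treated KO (SD, n = 3). The DSS sums were below all untreated sums of the same genotype, and the KO sums were above all WT sums of the same treatment. Chga, Chgb and Gcg make up most of each sum.

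**Figure D4:**
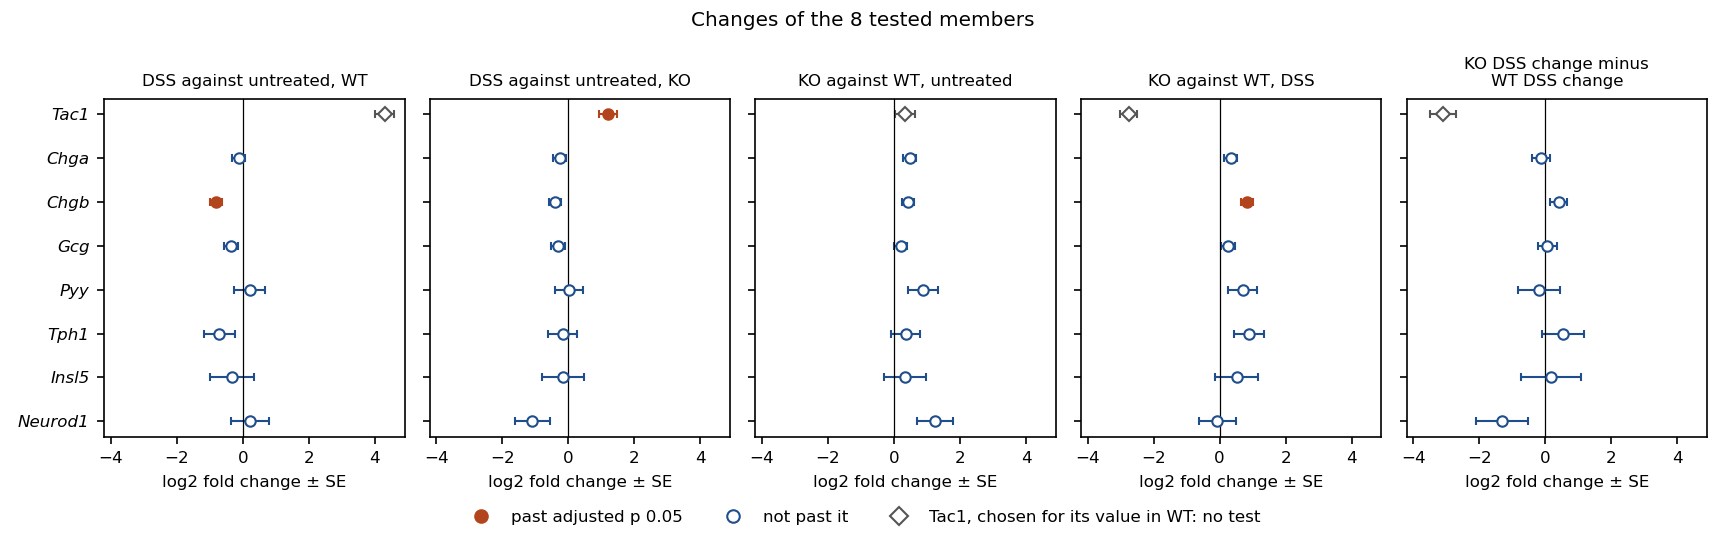
Log2 fold changes with their SE for the 8 tested genes in the 5 contrasts. Filled circles passed an adjusted p of 0.05 (Tac1 and, in 2 contrasts, Chgb), open circles did not, and open diamonds are Tac1 values that carry no test.

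Other genes of enteroendocrine cells and of tachykinin and serotonin handling were read from fixed lists. Some, such as Maoa and Ece1 (means of 1211 and 293 CPM in untreated WT), stood far above Chga (23.8 CPM there). The part of endocrine cells in the values of the listed genes was not tested. Of 16 further hormones and transmitter enzymes, 15 were in the tables and only Ddc and Slc18a1 passed the filter on low counts. Neither passed the edgeR test in any contrast (Ddc, at mean levels of 99.4 to 136 CPM, had an unadjusted p under 0.05 in 2 of them). Neurotensin (Nts), a peptide of ileal and colonic endocrine cells, had 4.23, 1.64 and 0.93 CPM in untreated WT and at most 0.67 CPM in every other library, without a test. Gip, Ucn3, Vip, Tac2, Tph2, Gast and Npw were at 0 in all 12 samples.

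Of 19 granins and granule proteins beside the set, 9 were tested. Only 1 passed, with a fall under DSS in WT, where 3.50% of all genes tested fell. Pcsk1, the prohormone convertase that cuts proglucagon and other precursors, had 14.9, 8.86 and 13.8 CPM in untreated WT and 6.23, 2.27 and 4.24 CPM in DSS-treated WT. It fell by 1.56 on the log2 scale (SE 0.36, edgeR adjusted p = 0.0156), with no overlap. The call did not hold without untreated WT sample 1, WT DSS sample 2 or WT DSS sample 3 (log2 fold change -1.42, -1.25 and -1.57, adjusted p 0.0557, 0.0670 and 0.0593), nor in a fit of the 2 WT groups alone (adjusted p = 0.0648). In KO Pcsk1 had 8.48, 9.76 and 7.13 CPM without treatment and 4.95, 4.30 and 4.02 CPM under DSS (log2 fold change -0.94, SE 0.36, adjusted p = 0.194). Pam, which amidates peptides such as substance P and peptide YY, had means of 73.8, 46.5, 90.1 and 80.5 CPM in untreated WT, DSS-treated WT, untreated KO and DSS-treated KO, with an adjusted p of 0.0976 for DSS in WT and 0.0699 between genotypes under DSS.

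Of 21 transcription factors of the lineage, 10 were tested, and Atoh1, which commits progenitors to the secretory lineages, was the one that passed. It had 48.7, 55.0 and 53.3 CPM in untreated WT and 77.4, 94.6 and 79.4 CPM in untreated KO (log2 difference 0.68, SE 0.13, adjusted p = 0.00667). Under DSS it had 73.7, 68.5 and 68.0 CPM in WT and 111, 117 and 97.3 CPM in KO (0.63, SE 0.12, adjusted p = 0.0127). In these 2 comparisons 1.72% and 1.77% of all genes tested were higher in KO. The second call did not hold without WT DSS sample 2 or 3 or KO DSS sample 2 (log2 difference 0.61, 0.60 and 0.56, adjusted p 0.0604, 0.0661 and 0.0718). Atoh1 also serves goblet cells, whose 8 markers summed to 18864 to 29987 CPM in untreated WT, 15196 to 17539 CPM in DSS-treated WT, 13803 to 15175 CPM in untreated KO and 26782 to 30721 CPM in DSS-treated KO. Neurog3, the factor that commits cells to the endocrine lineage, was at or under a mean of 0.51 CPM in each group and was not tested.

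Of 20 receptors and channels of enteroendocrine cells, 11 were tested. Sstr1, a somatostatin receptor, fell under DSS in both genotypes, from 6.70, 4.27 and 11.7 CPM to 2.13, 1.47 and 1.14 CPM in WT (log2 fold change -2.25, SE 0.44, adjusted p = 0.00548). In KO it fell from 13.9, 10.7 and 7.60 CPM to 1.59, 2.08 and 1.80 CPM (-2.54, SE 0.43, adjusted p = 0.00415). Ffar4, a receptor of long-chain fatty acids, rose under DSS in WT from 9.77, 6.89 and 7.42 CPM to 25.4, 17.6 and 20.2 CPM (1.39, SE 0.23, adjusted p = 0.00143). In untreated KO, Ffar4 was at 15.8, 19.4 and 14.6 CPM, above untreated WT (1.04, SE 0.23, adjusted p = 0.0203). That difference did not pass without untreated WT sample 2 or untreated KO sample 1 or 2 (0.94, 1.08 and 0.92, adjusted p 0.0918, 0.0540 and 0.0951) nor in a fit of the 2 untreated groups alone (adjusted p = 0.0933). Npy1r, a receptor of peptide YY and neuropeptide Y, fell in KO from 20.5, 15.9 and 16.2 CPM to 3.89, 4.89 and 6.79 CPM (-1.74, SE 0.43, adjusted p = 0.0348), a call lost without any 1 of the 6 KO samples (adjusted p 0.0608 to 0.128).

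In the tachykinin system, the receptors Tacr1 and Tacr3 and the related precursors Tac2 and Tac4 were at 0 in all 12 samples, and Tacr2 had a mean of 0.12 CPM in untreated KO and 0 elsewhere. Of the 9 genes listed, 3 were tested, all peptidases. Mme, also listed, did not pass the filter on low counts and has no test. Its counts were 0 in every WT library, 20, 28 and 4 in untreated KO and 0, 1 and 0 in DSS-treated KO. Ece1, an endothelin-converting enzyme that also degrades substance P, fell under DSS in WT from 307.8, 287.4 and 282.8 CPM to 194.8, 174.7 and 206.8 CPM (log2 fold change -0.61, SE 0.10, adjusted p = 0.00112). It was also lower in untreated KO, at 197.5, 183.8 and 207.1 CPM (-0.58, SE 0.10, adjusted p = 0.00362), and had 233.4, 215.6 and 217.3 CPM in DSS-treated KO (0.18, SE 0.10, adjusted p = 0.404). The DSS change of Ece1 differed between genotypes by 0.79 (SE 0.14, adjusted p = 0.00675).

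In serotonin handling, 8 of 14 listed genes were tested. Slc6a4, the transporter that takes serotonin back up into epithelial cells, rose under DSS in WT from 37.7, 32.2 and 30.3 CPM to 60.1, 56.4 and 71.3 CPM (log2 fold change 0.90, SE 0.16, adjusted p = 0.00259). In untreated KO it was at 63.9, 58.3 and 53.8 CPM, above untreated WT (0.81, SE 0.16, adjusted p = 0.0105), a call lost without untreated KO sample 1 (0.75, adjusted p = 0.0555). In DSS-treated KO it was at 89.8, 91.8 and 67.2 CPM (0.50, SE 0.16, adjusted p = 0.103). Maoa, which breaks serotonin down, fell under DSS from a mean of 1211 to 705.8 CPM in WT (-0.78, SE 0.11, adjusted p = 0.00032) and from 1105 to 807.2 CPM in KO (-0.45, SE 0.11, adjusted p = 0.0273). The call in KO was lost without any 1 of the 6 KO samples (adjusted p 0.0594 to 0.116). Maob was higher in KO without treatment (0.77, SE 0.19, adjusted p = 0.0363) and under DSS (0.75, SE 0.19, adjusted p = 0.0466), and these calls were lost in 8 and 10 of the 12 fits that left out 1 sample, with adjusted p of up to 0.134 and 0.173 over all fits.

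In the list of pan-enteroendocrine markers, Reg4, a secreted lectin of endocrine cells and of deep crypt secretory cells, stood far above Chga. It had 1335, 991.2 and 545.3 CPM in untreated WT and 193.6, 245.4 and 203.5 CPM in DSS-treated WT. Chga had 18.5 to 28.1 and 18.3 to 23.9 CPM in these 2 groups. Reg4 fell by 2.16 on the log2 scale (SE 0.24, adjusted p = 4.8e-05). In KO it had 360.9, 475.3 and 422.1 CPM without treatment and 376.4, 477.7 and 485.4 CPM under DSS (log2 fold change 0.09, SE 0.23, adjusted p = 0.907), and the DSS changes differed by 2.25 (SE 0.33, adjusted p = 0.00179). Reg4 was lower in KO without treatment (-1.19, adjusted p = 0.0105) and higher in DSS-treated KO (1.06, adjusted p = 0.0248). The first of these was lost without untreated KO sample 1 or 3 (-1.09 and -1.19, adjusted p 0.0632 and 0.0516) or with only the 2 untreated groups (adjusted p = 0.0826). The second was lost without any 1 of the 3 WT DSS samples or without KO DSS sample 2 or 3 (0.99 to 1.17, adjusted p 0.0509 to 0.125). The sums of goblet cell markers, which share the secretory lineage, are given above, and their part in the Reg4 values was not tested.

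**Figure D5:**
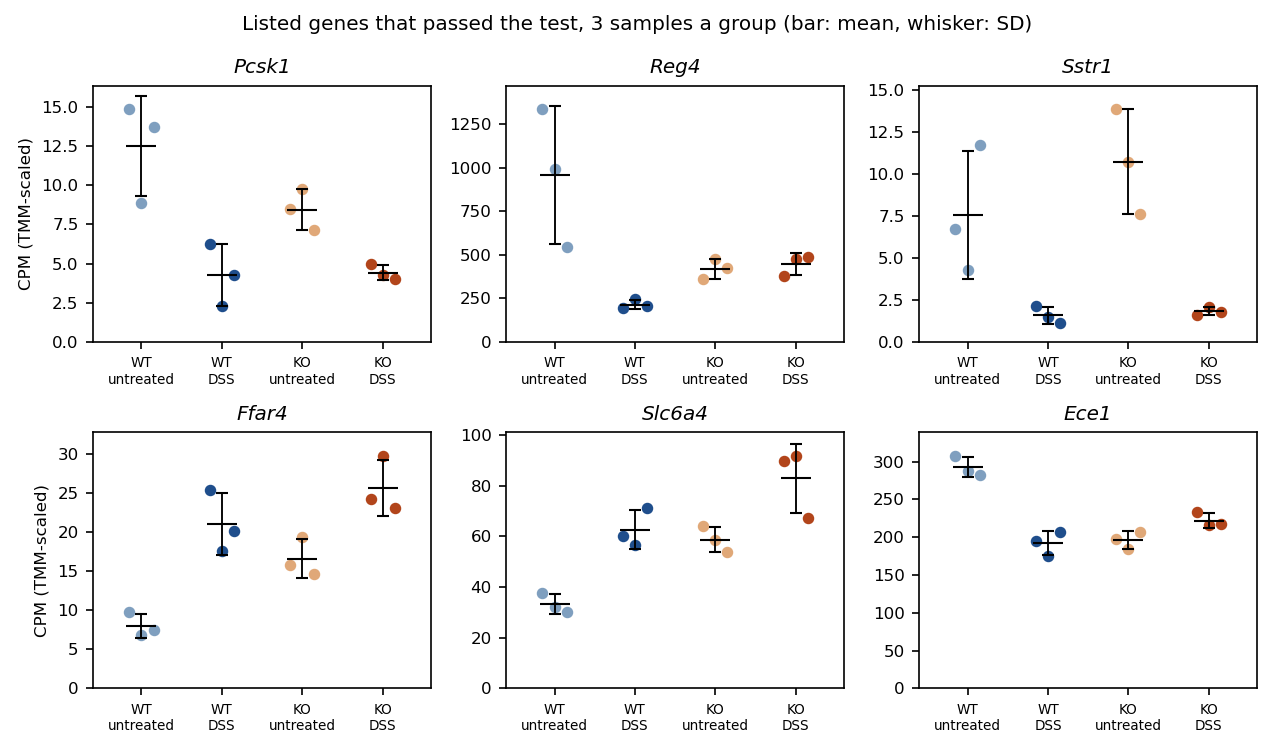
CPM of 6 listed genes that passed the test in at least 1 contrast, in each sample, with group means and SD. Pcsk1, Reg4, Sstr1 and Ece1 are lower and Ffar4 and Slc6a4 higher in DSS-treated WT than in untreated WT.

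Colonocyte markers moved beside these genes, as 8 of 10 fell and 2 rose under DSS in WT, where 3.50% of all genes fell and 2.80% rose. In KO 7 fell and 2 rose under DSS, against 2.04% and 1.88% of all genes. KO was higher for 2 (1.72% of all genes) and lower for 1 (1.76%) without treatment, and higher for 5 under DSS (1.77%). Their sum was 12847 to 14092 CPM in untreated WT, 4334 to 4464 CPM in DSS-treated WT, 8729 to 9459 CPM in untreated KO and 4950 to 5684 CPM in DSS-treated KO. Of 8 tuft cell markers, which sum to 12.1 to 46.7 CPM over the 12 samples, 5 were tested and none passed in edgeR (3 had an unadjusted p under 0.05 in each of 3 of the 5 contrasts, DSS in WT among them). The neutrophil list summed to 1.19 to 5.13 CPM and the fibroblast and smooth muscle list to 8.67 to 16.0 CPM. The part of these cells in the results was not tested.

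Likeness to Tac1 was described by Pearson's r of log2 CPM over the 12 samples, among 11240 genes with a mean of at least 1 on that scale. The 12 points fall into 4 groups of which DSS-treated WT lies apart, so a high r mostly reflects a high level in that group, and no p is given. The 5 most alike were Smad1 (0.982), Hip1r (0.972), Clca4b (0.962), Wars (0.958) and Ido1 (0.954). Clca4b had means of 97.3, 637, 83.7 and 137 CPM and Ido1 of 5.38, 102, 11.6 and 18.9 CPM in untreated WT, DSS-treated WT, untreated KO and DSS-treated KO. The 3 most opposite were Prnp (-0.979), Acsm3 (-0.958) and Cth (-0.952), and Prnp had means of 156, 47.5, 130 and 92.0 CPM. The r of Tac1 with the other genes of the set was -0.85 for Chgb, -0.56 for Gcg, -0.48 for Tph1, -0.47 for Chga and -0.04 for Pyy. For Chga, the 5 most alike were D10Jhu81e (0.918), Tent5c (0.911), Umps (0.897), Brix1 (0.895) and Rrp36 (0.894), and its r with Chgb was 0.69.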

How the data were processed

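The deposited values are whole-number read counts per gene, not normalized, in 1 table for each of the 12 samples. Per the labels' protocols, 2 ng of RNA (integrity number 7.2 to 9.2) went into a SMART-seq2 and Nextera XT library, which has no molecular identifiers and keeps no strand. Per the submitters' processing notes, STAR 2.5.2b, featureCounts 1.5.0 and the GRCm38 (mm10) genome were used; the annotation release and strand setting are not given in the sources used here. The tables held 0 ERCC rows.

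Gene IDs were matched to GENCODE M21 without their version (46005 of 46517). The counts were tested with edgeR 4.0.16 in R 4.3.3 (filterByExpr, TMM, quasi-likelihood F test, 1 coefficient a group over all 12 samples), adjusted by Benjamini-Hochberg over the 12522 genes tested, with a threshold of 0.05. The SE is the log2 fold change divided by the square root of F. CPM was scaled by TMM factors, and log2 CPM used a prior count of 2. Length is the union of a gene's exons. Replicates of a group differed by more than counting noise (chi-square per degree of freedom 6.51 to 27.0). Tested on simulated data for DSS in WT, 62% of 100 genes with a log2 change of 1 and 96% of 100 with a change of 2 were recovered. The changed genes were drawn only from those above a set mean count, and their spread followed the trend over all genes. Insl5 and Neurod1 lie below that mean count, so these shares do not apply to them. The shares are averages over the genes drawn. They do not describe Pyy or Tph1 either, with SE of 0.44 to 0.47 in the comparisons of 2 groups.

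Alternatives were DESeq2 1.42.0, its size factors in edgeR, other filters, a fit of only the groups compared, a replicate block and leaving out each sample. The labels state no pairing of samples. Deviations of same-numbered samples, untreated against DSS, had r = 0.204, 0.106 and 0.127 in KO and 0.014, 0.120 and 0.128 in WT. Untreated WT sample 1 and untreated KO sample 2, with different numbers, had r = 0.282, so these values do not establish a pairing. The order within same-numbered KO pairs is given as a description only, and only where all 3 pairs agreed. For Gcg, Pyy, Tph1 and Insl5 the KO pairs went both ways. All tested members are named in every comparison. From each pathway list, up to 4 other genes past the threshold with the largest change per contrast are named. Marker lists are given by counts and sums, and Erbb3 and Hoxb13 were named from them after their values were seen. One listed marker gene is not reported here. The members and the lists were chosen with earlier results of these data known.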

Additional observations from a re-analysis of the deposited data

Results flagged for a closer look

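The DSS change differed between genotypes, by the interaction test of edgeR, for Ece1 and Reg4 of the pathway lists and for Hoxb13 of the marker lists. It also differed for 3 of 10 colonocyte and 2 of 8 goblet markers, against 1.70% of all genes tested. These markers are described here by their counts and sums. Ece1 differed by 0.79 on the log2 scale (KO change minus WT change, SE 0.14, adjusted p = 0.00675), with 307.8, 287.4 and 282.8 CPM in untreated WT against 194.8, 174.7 and 206.8 CPM under DSS, with no overlap. Reg4 differed by 2.25 (SE 0.33, adjusted p = 0.00179). Both held in every alternative run. Hoxb13, a posterior Hox gene, differed by -0.64 (adjusted p = 0.0337), with means of 228, 358, 348 and 351 CPM in untreated WT, WT under DSS, untreated KO and KO under DSS. That call did not hold with the replicate block (adjusted p = 0.0733) or in 9 of the 12 fits that left out 1 sample (adjusted p of up to 0.110).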

How the results depend on the processing

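Depth limits Insl5, Neurod1, Sst and Cck, and 3 samples a group limit all tests. The number of genes past the threshold moved by over 1.5 times in these settings. Without a filter it was 776 for DSS in KO (491 in the reported fit), 703 for KO against WT untreated (436), 642 under DSS (390) and 356 for the interaction (213). With DESeq2 it was 779, 736, 637 and 344. In a fit of only the groups compared it was 467 for DSS in WT (789) and 195 for the untreated groups. The cause was not tested.

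With the replicate block 695, 409, 345, 290 and 186 genes passed in the 5 contrasts, and no call of the 10 genes changed. Of the other named genes, Hoxb13 lost its interaction call.

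Leaving out 1 sample at a time gave 483 to 958 genes for DSS in WT, 235 to 710 for DSS in KO, 212 to 725 untreated, 160 to 566 under DSS and 152 to 350 for the interaction. Of the 9 genes other than Tac1, 0 to 1 passed for DSS in WT and for KO against WT under DSS. Values that were not called changed sign in some of these fits. For DSS in WT the ranges were -0.28 to 0.0034 for Chga, -0.13 to 0.63 for Pyy and -1.18 to 0.0018 for Insl5. For DSS in KO they were -0.29 to 0.15 for Pyy, -0.36 to 0.10 for Tph1 and -0.53 to 0.076 for Insl5. Tph1 ran from -0.022 to 0.92 between untreated genotypes and Neurod1 from -0.44 to 0.30 under DSS. Tac1, which carries no test there, ran from -0.015 to 0.62 between untreated genotypes. For the interaction the ranges were -0.28 to 0.013 for Chga, -0.084 to 0.23 for Gcg, -0.61 to 0.15 for Pyy, -0.031 to 0.91 for Tph1 and -0.20 to 1.01 for Insl5. A fit of only the groups compared filtered out Insl5 and Neurod1 for DSS in WT and for KO against WT under DSS.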
